A study of Arabidopsis thaliana with 6 samples.

Results

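Calmodulin-like (CML) genes were examined in microdissected root meristems of Arabidopsis thaliana, as the probe sets of the expression array whose annotated gene symbol is CML followed by a number. There were 7 of them among the 22810 probe sets of the array, 1 for each of 7 genes: CML23, CML30, CML37, CML38, CML41, CML42 and CML43. The annotation names 13356 genes in all from probe sets with a single gene, and it does not list 8794 probe sets. CML genes that it does not name, CML24 among them, were not covered, so the results do not stand for the whole family. Each of the 7 was matched by its gene identifier to 1 locus in the RefSeq gene table. One group of plants carried 35S:miR396, a construct in which the strong constitutive viral 35S promoter drives the microRNA miR396, and the other was wild type (WT). Each group had 3 arrays, one per biological replicate, all from seedlings at 7 days after sowing, grown on agar medium and given no treatment. The labels do not give the transgenic line, the miR396 gene used or how the plants of a replicate were grown apart, so the p-values reflect only how far these samples spread, which may be technical. The growth-regulating factor genes, the main known targets of miR396, were not looked at, and only the labels give the genotype.

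Calcium is a second messenger that rises in plant cells for a short time after touch, wounding, pathogens, cold, salt or lack of oxygen. The rise is read by proteins with EF-hand loops that bind calcium and change shape, of which calmodulin is the best known. CML proteins are relatives of calmodulin that consist of little besides EF-hands and have no enzyme activity of their own, so they act by binding other proteins. Other readers of calcium in plants are the calcineurin B-like proteins with their kinases and the calcium-dependent protein kinases. Calmodulin and some CML proteins also bind IQD proteins, a plant family with an IQ67 domain, several of which sit on microtubules.

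Tests were run on probe sets that reached a log2 value of 4 in 3 or more of the 6 arrays, a filter that 11364 probe sets and 4 of the 7 CML probe sets passed. Values are log2 GCRMA values, a scale on which GCRMA (a background correction and normalization that uses probe sequences) gives probe sets without signal a floor of about 2.25. In each array 35.1% to 35.4% of the probe sets lay within 0.1 of that floor. Limma's test called 2838 of the tested probe sets at an adjusted p under 0.05, which is 25%, with 12.7% higher and 12.3% lower in 35S:miR396. The groups did not overlap at 45.7% of the tested probe sets. Replicate 2 of 35S:miR396 stood apart from replicates 1 and 3: it lay nearest to the WT mean at 62.6% of the called probe sets, and 3813 probe sets (33.6%) were called without it. Results on CML genes are therefore given with and without that array where its absence changes a call. Of the markers of the root meristem and its stem cells, 3 of 13 had a named probe set: BBM and AGL42 rose in 35S:miR396, by 1.5 ± 0.14 and 0.68 ± 0.14 on the log2 scale (SE; adjusted p = 0.00122 and 0.0163 by limma), and JKD stood at -0.07 ± 0.17. EXPA7 and EXPA18, markers of root hair cells, were at or near the floor in every array, with values of 2.25 to 2.38. The markers of root cap, endodermis, xylem, phloem and green tissue had no named probe set and were not analysed here. In such bulk tissue, more cells that express a gene and more RNA per cell cannot be told apart.

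Among the 4 tested CML genes, CML43 and CML30 rose in 35S:miR396, none was called lower, and CML23 and CML38 did not pass the test. CML43 was 6.47-fold higher and CML30 was 1.92-fold higher. Values of CML23 were lower in every 35S:miR396 array than in every WT array, by 0.38 in the mean, without passing the test, and CML38 had the same mean in both groups. CML42 stayed below the filter, and CML37 and CML41 were at the floor in all 6 arrays. The calls thus cover 2 of 4 tested CML genes, beside 25% of all tested probe sets, and with 4 genes this share is a description. CML43 and CML30 had 5 of the 6 arrays at or above the filter's level, all 3 of 35S:miR396 and 2 of WT, so 35S:miR396 alone would have passed them. The median log2 fold change of the 4 was 0.47, beside -0.015 over all tested probe sets. The 4 values were 2.69, 0.94, 0 and -0.38, so the median does not stand for a shared rise. The median leaves out CML42, at -0.4 with no filter, and CML37 and CML41 at the floor. The plot of CML values by array shows the 7 genes side by side.

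**Figure D1:**
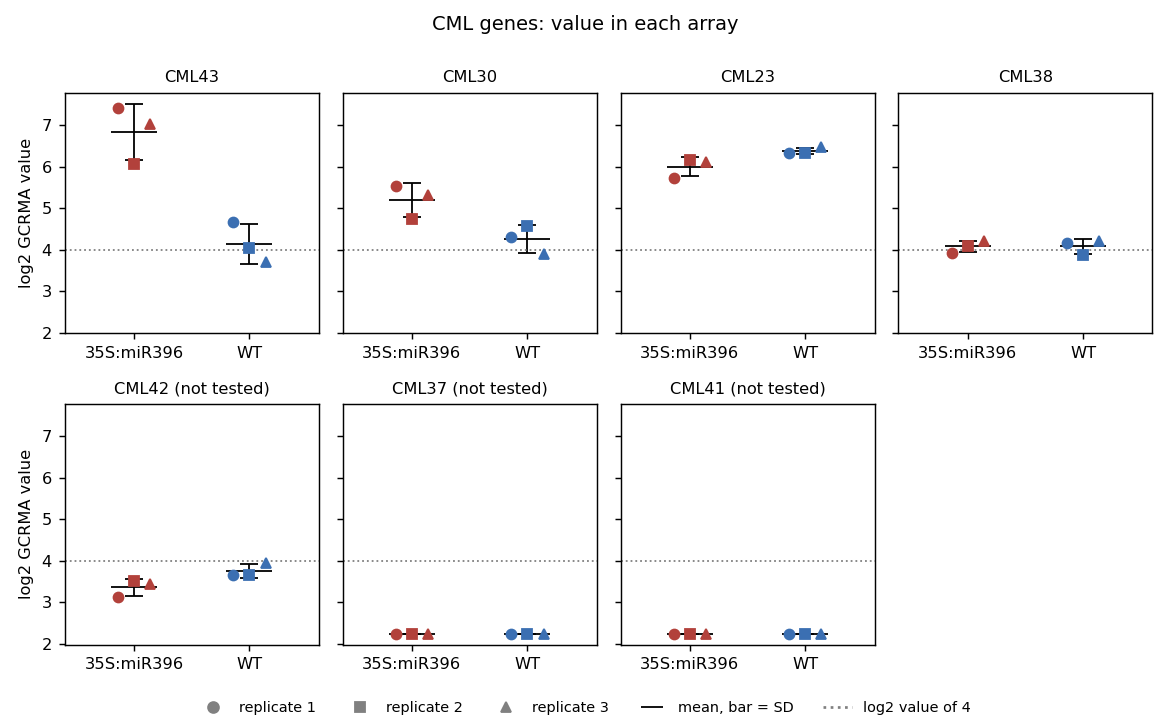
Log2 GCRMA value (y axis) of the 7 CML probe sets in each array of 35S:miR396 (left, red) and WT (right, blue); symbols mark the replicate number, black lines the mean with its SD over 3 arrays, and the dotted line the log2 value of 4 used in the filter. CML43 and CML30 lie higher in all 3 arrays of 35S:miR396, CML23 and CML42 lie lower, CML38 overlaps, and CML37 and CML41 sit at the floor of 2.25.

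CML43 encodes an EF-hand protein known from the immune response, where its transcript is induced by pathogens and salicylic acid. Its probe set gave 7.40, 6.07 and 7.02 in replicates 1, 2 and 3 of 35S:miR396, against 4.67, 4.03 and 3.71 in those of WT. All 3 arrays of 35S:miR396 were above all 3 of WT, with a gap of 1.40 between the lowest of the first and the highest of the second. The means were 6.83 ± 0.68 in 35S:miR396 and 4.14 ± 0.49 in WT (SD, n = 3 each), a log2 fold change of 2.69 ± 0.37 (SE; adjusted p = 0.00503 by limma). The 95% interval of the fold was 3.53 to 11.9. By log2 fold change CML43 ranked 26 from the top among the 11364 tested probe sets.

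The size of the rise of CML43 differed between the arrays of 35S:miR396. Set against the WT mean, it was 9.59-fold in replicate 1, 3.82-fold in replicate 2 and 7.37-fold in replicate 3. The arrays of a group spread widely for this gene: its SD within groups was 0.60, beside a median of 0.13 over all tested probe sets, and 1.70% of them had a larger one. The WT arrays lay around the level of 4 used in the filter. Whether GCRMA compresses differences at that level was not tested, so the size of the fold is uncertain. The call held without each array in turn, with a lowest log2 fold change of 2.41 when replicate 1 of 35S:miR396 was left out and a highest of 3.07 when replicate 2 was. It was lost when dim probe sets were tested too, without the filter (adjusted p = 0.0522; 0.0655 with no trend in the variance prior as well), at the same log2 fold change of 2.69.

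CML30 encodes a calmodulin-like protein that has been found in mitochondria. Its values were 5.54, 4.74 and 5.31 in replicates 1, 2 and 3 of 35S:miR396, against 4.30, 4.57 and 3.89 in those of WT. The groups did not overlap, but replicate 2 of 35S:miR396 lay only 0.16 above the highest WT array. The means were 5.19 ± 0.41 in 35S:miR396 and 4.26 ± 0.34 in WT (SD, n = 3 each), a log2 fold change of 0.94 ± 0.25 (SE; adjusted p = 0.0343 by limma). The 95% interval of the fold was 1.28 to 2.88, and 3.78% of the tested probe sets had a larger log2 fold change. Set against the WT mean, CML30 was 2.44-fold higher in replicate 1, 1.40-fold in replicate 2 and 2.07-fold in replicate 3. Its WT arrays lay around the level of 4 used in the filter. Whether GCRMA compresses differences there was not tested, so the size of this fold is uncertain too.

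The call of CML30 depended on most single arrays. It held without replicate 2 of 35S:miR396, at 1.17 ± 0.21 (SE; adjusted p = 0.0102 by limma). It was lost without replicate 1 (0.77, adjusted p = 0.0957) or replicate 3 (0.88, adjusted p = 0.105) of 35S:miR396. It was also lost without replicate 1 (0.96, adjusted p = 0.085), 2 (1.1, adjusted p = 0.0567) or 3 (0.76, adjusted p = 0.0973) of WT, and when the filter was dropped (0.94, adjusted p = 0.159). The direction was the same in each of these fits.

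CML43 and CML30 had the same order of arrays within 35S:miR396, replicate 1 highest and replicate 2 lowest, and replicate 3 was the lowest array of WT for both. Replicate 2 of 35S:miR396 reached 63.0% of the way from the WT mean to the mean of replicates 1 and 3 for CML43 and 41.2% for CML30, beside a median of 74.8% over the called probe sets. The meristem markers BBM and AGL42 had another order, with their highest values, 7.37 and 7.15, in replicate 2 of 35S:miR396. BBM gave 6.97 and 6.92, and AGL42 gave 7.03 and 6.95, in replicates 1 and 3. Whether the share of meristem cells bears on the CML values was not tested.

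CML23 encodes a close relative of the touch-induced protein CML24, and the pair is known from work on nitric oxide and flowering time. Its values were 5.73, 6.17 and 6.10 in replicates 1, 2 and 3 of 35S:miR396, against 6.33, 6.34 and 6.48 in those of WT. Every 35S:miR396 array was below every WT array, by a gap of 0.16. The means were 6.0 ± 0.23 in 35S:miR396 and 6.38 ± 0.08 in WT (SD, n = 3 each), a log2 fold change of -0.38 ± 0.13 (SE) with a 95% interval from -0.70 to -0.07. Its adjusted p was 0.0723 by limma, so it did not pass. It passed without replicate 2 of 35S:miR396 (-0.47 ± 0.13, SE; adjusted p = 0.0383) and with array weights (-0.31, adjusted p = 0.0365), and in no other fit that was run. Groups without overlap, as in CML23, were seen at 45.7% of all tested probe sets.

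CML38 is one of the core genes that plants switch on when oxygen is short, and its protein has also been reported to bind the root growth peptide RALF1. In these meristems it gave 3.93, 4.10 and 4.20 in replicates 1, 2 and 3 of 35S:miR396, against 4.15, 3.87 and 4.21 in those of WT. The values of the groups overlapped throughout, at means of 4.08 ± 0.14 in 35S:miR396 and 4.08 ± 0.18 in WT (SD, n = 3 each). The log2 fold change was 0.00 ± 0.14 (SE; adjusted p = 0.998 by limma). The 95% interval of the fold ran from 0.795 to 1.26. The arrays of both groups lay around the level of 4, and whether GCRMA compresses differences there was not tested. The interval holds for the GCRMA values and may be too narrow for the transcript. With 4 arrays at or above 4, CML38 was just inside the filter. HRA1, a regulator of the hypoxia response at AT3G10040 and the only other named gene of a list of 21 core hypoxia entries, was at 2.39 in all 3 arrays of 35S:miR396, against 2.39, 2.58 and 2.39 in WT, too dim to be tested.

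**Figure D2:**
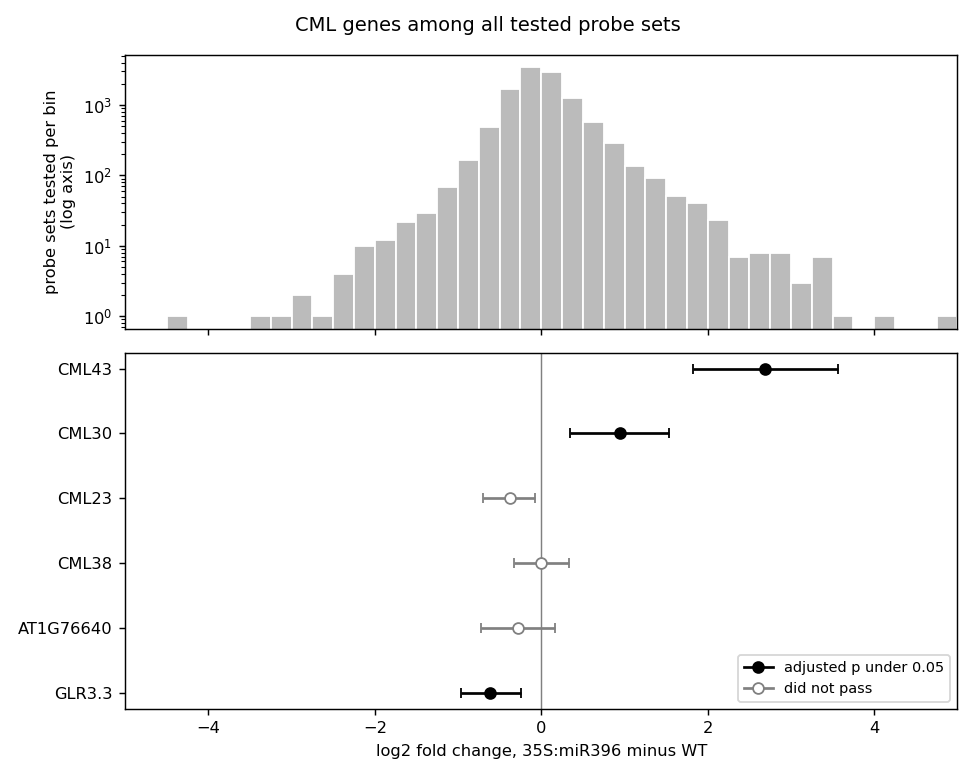
Upper panel: number of tested probe sets (log axis) by log2 fold change of 35S:miR396 minus WT (x axis, bins of 0.25); lower panel: log2 fold change with its 95% interval for the 4 tested CML genes, AT1G76640 and GLR3.3, filled where the adjusted p is under 0.05. CML43 at 2.69 lies in the thin right tail, CML30 at 0.94 lies on its shoulder, and CML38 lies at 0.

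CML42, which acts in trichome branching and in the response to feeding insects and is the closest relative of CML43, was just outside the filter. Its values were 3.13, 3.51 and 3.44 in replicates 1, 2 and 3 of 35S:miR396, against 3.67, 3.65 and 3.96 in those of WT. Every 35S:miR396 array was below every WT array, by a gap of 0.14, the opposite order to that of CML43. When the filter was dropped, its log2 fold change was -0.40 ± 0.15 (SE; adjusted p = 0.211 by limma), so it did not pass. The difference in direction between CML42 and CML43 was not tested.

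The remaining CML genes with a named probe set gave no signal. CML37, a regulator of responses to drought and insect feeding, was at the floor of 2.25 in all 6 arrays. CML41, which acts at plasmodesmata in immunity, was at the same value in all 6 arrays. A probe set at the floor does not show that the transcript is absent.

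**Figure D3:**
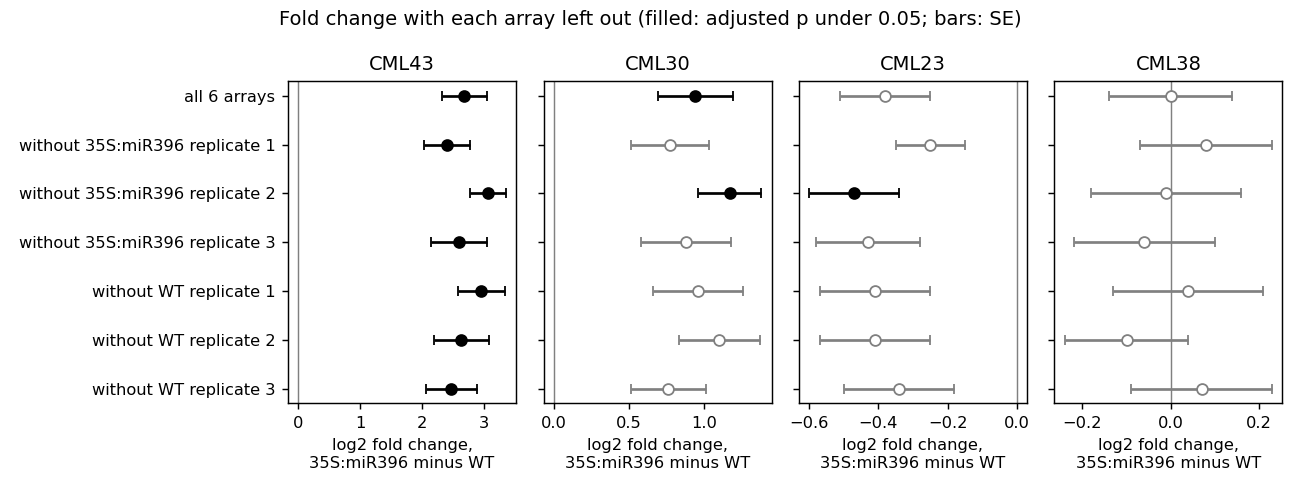
Log2 fold change of 35S:miR396 minus WT with its SE (x axis, a scale of its own for each gene) for the 4 tested CML genes, with all 6 arrays and with each array left out (y axis), filled where the adjusted p is under 0.05. CML43 passes in each fit, from 2.41 to 3.07; CML30 passes with all arrays and without replicate 2 of 35S:miR396; CML23 passes only without that array; CML38 lies between -0.10 and 0.08.

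One more of the named probe sets belongs to the family by the RefSeq table. It is that of AT1G76640, which lists CML39 as a synonym and is the gene next to CML38 on chromosome 1. It gave 3.78, 4.37 and 4.25 in replicates 1, 2 and 3 of 35S:miR396, against 4.61, 4.43 and 4.20 in those of WT. The groups overlapped, and its log2 fold change of -0.28 ± 0.19 (SE; adjusted p = 0.297 by limma) did not pass the test. Replicate 1 of 35S:miR396 was the lowest array of the 6 for AT1G76640, CML23 and CML42, and it was the highest for CML43 and CML30. For CML38 it was neither. How often that array was the lowest or highest over all tested probe sets was not counted. RefSeq also lists CML39 as a synonym of CML37, so that name is ambiguous.

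The tested genes next to the CML genes on the chromosome did not pass the test. Named probe sets existed for 11 neighbours of 6 CML genes, and 7 of these were tested. Limma called 0 of the 7 at an adjusted p under 0.05, beside 25% of all tested probe sets. An unadjusted p under 0.05 was found at 4 of the 7, beside 40.4% of all tested probe sets, and the groups did not overlap at 3, beside 45.7%. AT5G44450, next to CML43, gave 7.03, 6.72 and 6.91 in 35S:miR396, against 6.48, 6.68 and 6.66 in WT. Its log2 fold change was 0.28 ± 0.11 (SE; adjusted p = 0.105), beside 2.69 for CML43. The other neighbour of CML43, AT5G44470, was near the floor at 2.26 in all 6 arrays. CML30 overlaps AT2G15690 in the RefSeq table, and that gene had 8.04, 8.22 and 8.09 in 35S:miR396, against 8.05, 8.24 and 8.30 in WT, with overlapping groups and a log2 fold change of -0.08 ± 0.09 (SE; adjusted p = 0.545). The neighbour that the table lists after CML23 is CAM4, a calmodulin gene with no named probe set here.

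The rest of the calcium pathway was little covered by the annotation. No calmodulin, calcineurin B-like protein, CBL-interacting kinase, calcium-dependent kinase or CAMTA factor had a named probe set, and neither did the touch genes. Of calcium pumps, exchangers and channels, 8 had one, all of them glutamate receptor-like channels, and 1 was tested. That was GLR3.3, a channel that carries wound signals over long distances, with 4.55, 4.76 and 4.26 in replicates 1, 2 and 3 of 35S:miR396, against 5.0, 5.12 and 5.27 in those of WT. It fell in 35S:miR396, with no overlap of the groups and a log2 fold change of -0.61 ± 0.15 (SE; adjusted p = 0.0305 by limma). Its call was lost with no filter (adjusted p = 0.119) and in each fit that left out 1 array, except the one lacking replicate 2 of 35S:miR396. In the fits that lost it, its log2 fold change lay between -0.67 (replicate 1 of WT left out) and -0.47 (replicate 3 of 35S:miR396 left out). STZ, a stress-induced zinc-finger factor and the only named member of a list of 12 early wound and stress factors, was too dim to be tested, at 2.42, 2.82 and 2.35 in 35S:miR396 and 2.35 in every array of WT.

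IQD genes, calmodulin-binding partners, were added as a list after the annotation had been seen. Of 15 named IQD probe sets 10 were tested: 3 rose, 1 fell and 6 did not pass. Without IQD15, which passed the filter through 35S:miR396 alone, 3 of 9 were called (33.3%), beside 25% of all tested probe sets. With no filter 2 of the 15 were called, beside 4.14% of all probe sets. The median log2 fold change of the 10 tested IQD probe sets, IQD15 included, was -0.02, beside -0.015 over all tested probe sets. IQD15 rose by 1.36 ± 0.18 (log2, SE; adjusted p = 0.00437 by limma), with 4.27, 4.36 and 4.13 in 35S:miR396, against 2.60, 2.85 and 3.21 in WT. That p follows a filter passed through 35S:miR396 alone. With no filter its adjusted p by limma was 0.0366, and 0.0469 with no trend as well. IQD15 was dim in WT. Whether GCRMA compresses differences at that level was not tested, so the size of its fold is uncertain. IQD16 rose by 0.67 ± 0.11 (SE; adjusted p = 0.00789), and its 3 arrays of 35S:miR396, from 6.49 to 6.69, were above those of WT, from 5.84 to 6.11. IQD26 rose by 0.42 ± 0.11 (SE; adjusted p = 0.0329) and IQD32 fell by 0.35 on the log2 scale (adjusted p = 0.0278). The calls of IQD26 and IQD32 were lost with no filter and in each fit that left out 1 array, except the one lacking replicate 2 of 35S:miR396. In the fits that lost them, values ran from 0.35 to 0.44 for IQD26 and from -0.38 to -0.28 for IQD32.

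**Figure D4:**
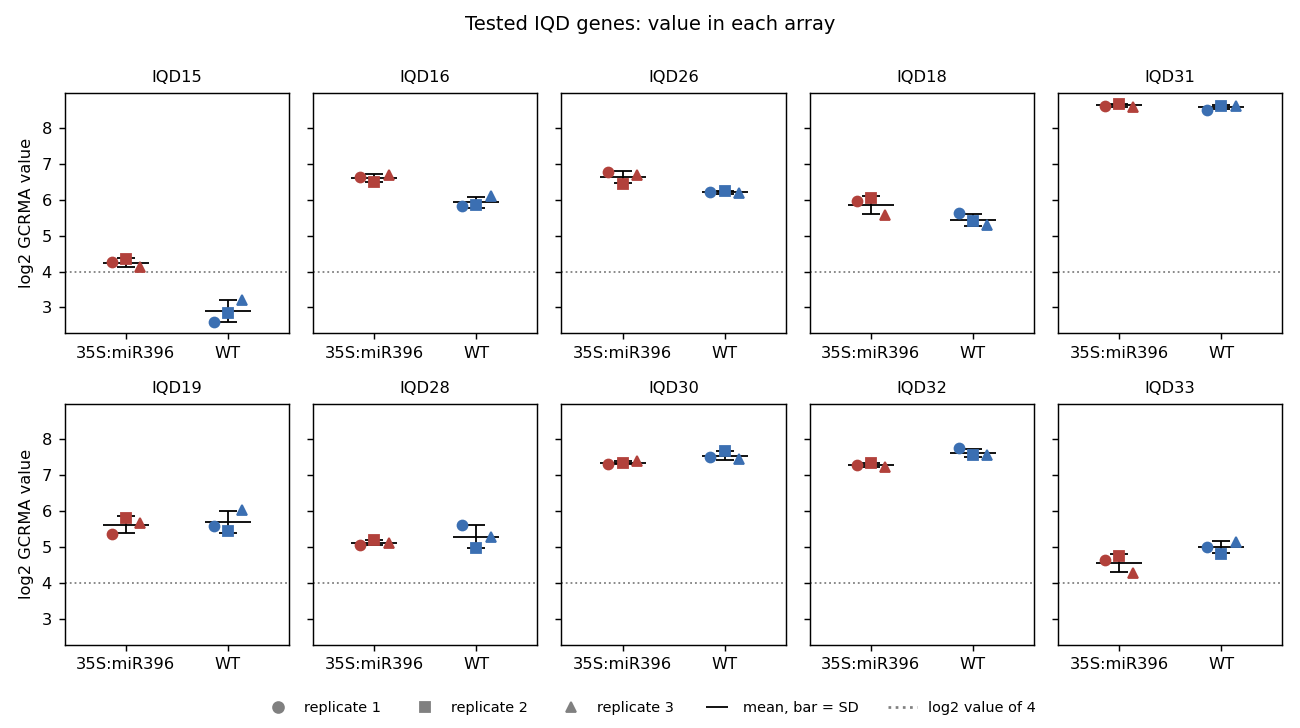
Log2 GCRMA value (y axis) of the 10 tested IQD probe sets in each array of 35S:miR396 (left, red) and WT (right, blue), ordered by log2 fold change; symbols mark the replicate number, black lines the mean with its SD over 3 arrays, and the dotted line the log2 value of 4. IQD15 shows the widest separation, with 4.13 to 4.36 in 35S:miR396 and 2.60 to 3.21 in WT.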

How the data were processed

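RNA of microdissected root meristems, 3 samples each of 35S:miR396 and WT, was labelled with biotin by a kit that works from the 3' end of transcripts, per the labels' protocols. The deposited values are log2 GCRMA summaries, 1 for each probe set, per the submitters' processing notes; the GCRMA version is not given in the sources used here. The log2 scale was read from the values, which run from 2.25 to 14.3. Scanner files were not used here, and the number of arrays limits the precision. After 64 control probe sets were left out, probe sets with a log2 value of at least 4 in at least 3 arrays were fitted with limma 3.58.1 in R 4.3.3 (lmFit, eBayes with trend, no replicate block), with 1 coefficient for 35S:miR396 minus WT. P-values are two-sided and adjusted by Benjamini-Hochberg over all 11364 tested probe sets, and the fit was tested on simulated data. SD is over 3 arrays and SE is limma's moderated error.

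Genes were named from the platform annotation, which gives 1 gene for 13513 probe sets, several for 503 and does not list 8794; 13436 matched the RefSeq table of assembly TAIR10.1, and no coordinates are given. The CML members, the 18 gene lists and the tests were chosen with earlier results of these data known. All 7 CML genes that the annotation gives are named. From each other calcium list up to 4 called members by absolute log2 fold change, or the one with the lowest p, are named. The alternatives were other filters, no trend, a robust prior, array weights, 2 further normalizations, the replicate block and leaving out each array.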

Additional observations from a re-analysis of the deposited data

How the results depend on the processing

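Of the 4 tested CML genes, 2 were called by limma. Without a single array the count was 1 to 3, and 0 of 7 were called with no filter on dim probe sets, beside 4.14% of all, or with no filter and no trend (a setting chosen after seeing the data), beside 2.74%. An unadjusted p under 0.05 was found at 4 of 7 in both, beside 21.5% and 21% of all probe sets. Under a stricter filter, a mean of 6 or more, CML23 alone was tested and 0 were called, with 1 at an unadjusted p under 0.05. Over all tested probe sets the count, 2838, became 941 with no filter, 624 with no filter and no trend, 4749 with array weights, and 1052 to 3813 without a single array. The log2 fold change of CML38, 0.00 in the main fit, turned to -0.08 with a further quantile normalization and -0.01 with median centring. That of CML38 was 0.15 with array weights and ran from -0.10 to 0.08 without a single array. CML43, CML30 and CML23 kept their direction in every alternative that tested them, 14, 14 and 15 in number. With no filter more dim probe sets share the variance prior and the adjustment. Whether that accounts for the lost calls was not tested, and neither was the cause of the other changes.

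With the replicate block 2844 probe sets and 2 CML genes were called, and no CML call changed. Deviations from the group means correlated across probe sets at 0.40, -0.09 and 0.14 for replicates 1, 2 and 3. Not every array correlated best with its own number: replicate 2 of 35S:miR396 did so with replicate 3 of WT (0.35). With 3 arrays in each group, these correlations cannot settle whether the numbers pair the samples. Signal at the floor limits CML37 and CML41. Low signal above the floor limits CML42, CML38 and the WT arrays of CML43 and CML30.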
